A study of Mus musculus with 2 samples.

Results

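The nicotinic acetylcholine receptor of muscle is a channel of several subunits, and its 5 subunit genes in mouse, Chrna1, Chrnb1, Chrnd, Chrng and Chrne, were taken by name from 21951 protein-coding genes of the GENCODE M21 annotation on mm10. Each was described by its DNase I peaks, footprints and false discovery rate (FDR) intervals within 1 kb of its annotated transcription start sites (TSS) and within 50 kb. The material was gastrocnemius, a calf muscle of the hindlimb, from female B6CASTF1/J mice aged 10 days, an F1 hybrid of a C57BL/6J and a CAST/EiJ parent. DNase-seq cuts open chromatin with the enzyme DNase I and reads the cut ends. Both libraries, replicates 1 and 2 by their labels, belong to 1 group. Each label names 3 females, and both give the same strain record. There was no other age, treatment or denervated muscle, so the fetal-to-adult change of subunits was not compared over time, and no test between conditions was possible. Values of a library carry no replicate error, and the difference between the libraries is the only replicate spread there is.

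The receptor is a pentamer that opens when acetylcholine released by the motor nerve binds at the alpha subunits. Chrna1 encodes the alpha subunit, Chrnb1 the beta subunit and Chrnd the delta subunit, which are in both forms of the receptor. Chrng encodes the gamma subunit of the fetal form and Chrne the epsilon subunit that takes its place in the adult form. In rodents this replacement takes place in the first weeks after birth, and in mature fibres the subunit genes are transcribed mainly by the nuclei under the nerve ending, a small share of all muscle nuclei.

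The libraries were unequal. The stricter of the lists of peaks deposited for each library, used unless stated, held 114758 peaks in replicate 1 and 26804 in replicate 2, with median depth-normalized heights of 1.18 and 1.48. Among all protein-coding genes, 66.6% had a promoter peak in replicate 1 and 51.4% in replicate 2. Of 10 skeletal muscle marker genes, 5 had one in replicate 1 and 3 in replicate 2, below these shares in both libraries. Ckm (creatine kinase) and Actn3 (alpha-actinin) had one in both and Des, Tnnt3, Myh1 and Myh4 in neither. Promoter heights summed over this list were 25.9 in replicate 1 and 9.70 in replicate 2. Of 6 neuron markers, 5 had one in replicate 1 and 3 in replicate 2, with summed heights of 49.7 and 3.59. Chat, the acetylcholine-synthesizing enzyme of motor neurons, had none in either, and Neurod2 and Tubb3 had none in replicate 2. Summed heights were 21.7 and 8.42 over 6 Schwann cell markers, of which 3 and 4 had a peak, and 2.16 and 0.954 over 4 endothelial markers, of which 1 had a peak in each library. Summed heights were higher in replicate 1 for all 4 marker lists, by ratios of 2.26 to 2.67 for muscle, Schwann cell and endothelial markers and 13.8 for neuron markers. In replicate 1 Neurod2 (16.1) and Tubb3 (12.6), named after their values were seen, gave most of the neuron sum. The files do not settle whether the library labelled replicate 1 holds gastrocnemius alone, and the part of other cells in its peaks at the subunit genes was not tested. A peak in few nuclei and a weak peak in many cannot be told apart in bulk tissue, and every result is therefore given for each library alone.

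Chrnb1 was the one subunit gene with a promoter peak. Its promoter peak reached a height of 7.39 in replicate 1 and 1.82 in replicate 2, and the peaks of the libraries overlapped. Chrna1, Chrnd, Chrng and Chrne had no peak within 1 kb of any TSS in either library. Among all protein-coding genes 66.6% had a promoter peak in replicate 1, 51.4% in replicate 2 and 45.0% a shared one, so the 1 of 5 subunit genes lay below the background in both libraries. Limited to its 26809 tallest peaks, replicate 1 still had the Chrnb1 peak and no other, beside 49.6% of all genes. In the longer lists Chrne joined Chrnb1 in both libraries through peaks well inside the gene, described further on, making 2 of 5 genes beside 71.1% and 59.7% of all genes, and 1 of 5 with a shared peak beside 53.4%.

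The deposited FDR intervals, which include weaker cutting than the stricter peaks, set Chrnb1 apart in the same way. Within 1 kb of the TSS of Chrna1, Chrnd and Chrng no base lay in an interval in either library, that is, no base had a deposited FDR of 0.05 or lower. The same held for the protein-coding TSS of Chrne. Of all protein-coding genes, 71.8% had at least 1 such base in replicate 1 and 60.8% in replicate 2. At an FDR of 0.001 or lower, which only Chrnb1 of the 5 reached, the shares of all genes were 67.2% and 52.8%. Chrnb1 had 916 bp in intervals in replicate 1, with a lowest FDR of 7.37e-48, and 744 bp in replicate 2, with a lowest FDR of 8.48e-07. The lowest value lay 452 bp downstream of the protein-coding start of Chrnb1 in replicate 1 and 121 bp downstream in replicate 2. The lowest FDR was thus inside the gene in both and at different positions. In replicate 2 it lay in a stretch of similar values, with a negative log10 of 6.07 there and 5.83 at 170 bp.

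**Figure D1:**
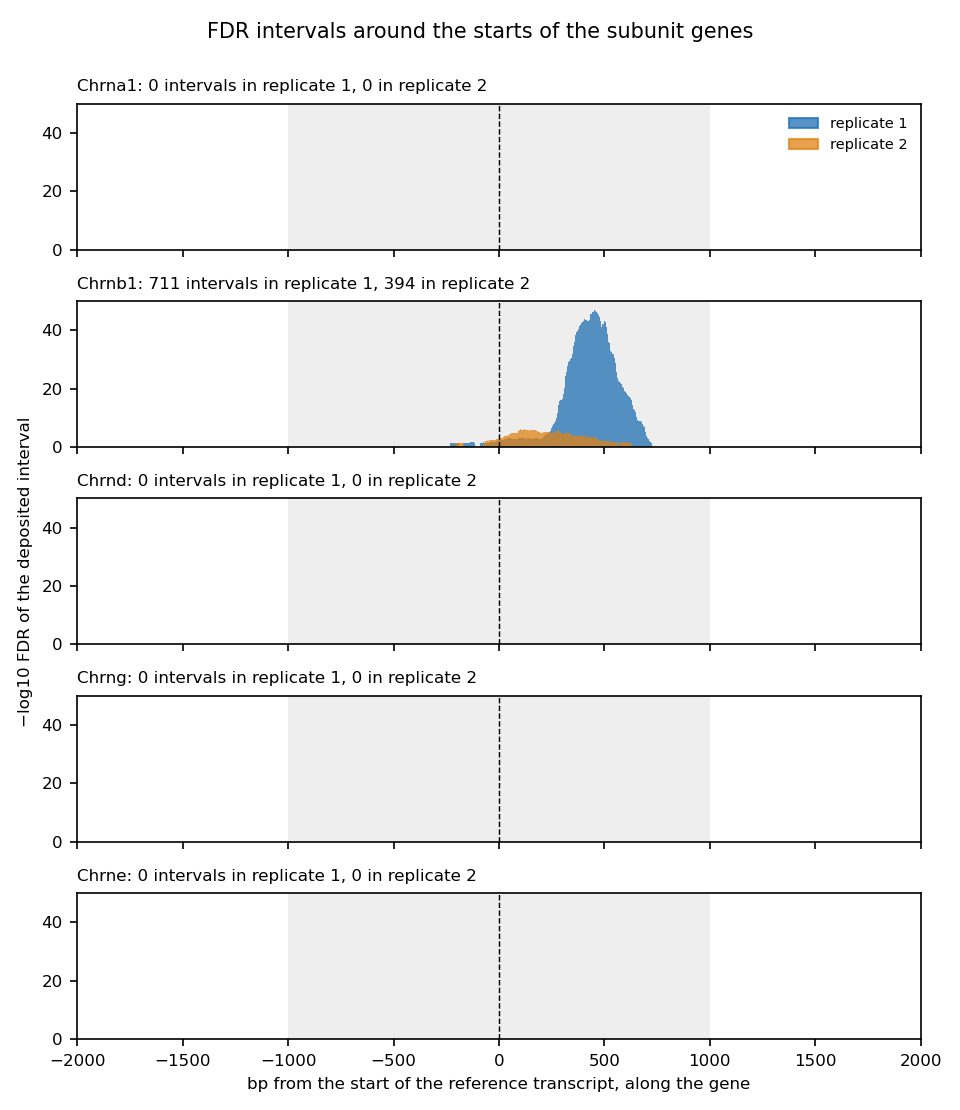
The vertical axis is the negative log10 of the FDR of each deposited interval and the horizontal axis the distance in bp from the start of each subunit gene's reference transcript, the first in GENCODE's numbering, along the gene, with replicate 1 in blue, replicate 2 in orange and the 1000 bp to each side shaded. Chrnb1 is the only panel with intervals, reaching an FDR of 7.37e-48 in replicate 1 and 8.48e-07 in replicate 2.

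Chrnb1 (chr11:69784036-69795943, minus strand, 11 exons, 4 annotated TSS) had 2 promoter peaks in replicate 1. The taller, of height 7.39, spanned chr11:69795361-69795600, with its middle 463 bp downstream of the start in intron 2, and held 8 footprints. A footprint is a short stretch inside open chromatin that is cut less than its flanks, as where a bound protein covers the DNA. The lower, of height 0.776, lay over exon 1 with its middle 80 bp downstream and held no footprint. In replicate 2 a single peak of 456 bp, chr11:69795480-69795935, had its middle 236 bp downstream, held 6 footprints and ran from the start site into the taller peak of replicate 1. It covered 50.4% of that peak, just above the 50% of either peak that counted as shared, and all of the lower one. The sequence of the taller peak is shown because it is the one open promoter of the family, in GRCm38.p6 on the gene's strand, with capitals for bases inside footprints of replicate 1.
Chrnb1 promoter peak: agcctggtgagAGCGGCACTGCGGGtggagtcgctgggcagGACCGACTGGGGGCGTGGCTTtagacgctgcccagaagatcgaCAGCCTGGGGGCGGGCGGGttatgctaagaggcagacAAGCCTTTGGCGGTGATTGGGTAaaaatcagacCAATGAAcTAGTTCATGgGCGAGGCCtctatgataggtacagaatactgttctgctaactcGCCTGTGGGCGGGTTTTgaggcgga
The Sp1 box GGGCGG, the motif of the widely expressed Sp factors, occurred 3 times in this peak. All 3 matches lay wholly inside footprints of replicate 1, and 2 of them overlapped each other inside the same footprint. Footprints of replicate 1 covered 118 of the 240 bp of the peak. The E-box CANNTG, which the MyoD family binds, was on neither strand of these letters. Replicate 2 had no footprint inside this peak, and so none at these Sp1 boxes. It had 4 footprints within 300 bp of the middle of the peak, all beyond its edge. Of these 4, 2 touched a footprint of replicate 1 that also lay outside the peak, and 0 lay wholly inside one. Among genes with a promoter peak, 44.3% had one as tall as that of Chrnb1 or taller in replicate 1 and 59.9% in replicate 2, which places Chrnb1 near the middle in both libraries.

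The sequences before the starts of the subunit genes are shown next because E-boxes lie in all of those printed, with and without a promoter peak at the gene. They are the 250 bases before the start in RefSeq's GRCm38.p6 annotation, on the gene's strand, with capitals for the E-boxes CANNTG and for the N-box CCGGAA, a motif of GABP and other Ets factors that is known from promoters of synaptic genes. Chrnd had no entry.
Chrna1 promoter, minus strand of chr2:73580339-73580588: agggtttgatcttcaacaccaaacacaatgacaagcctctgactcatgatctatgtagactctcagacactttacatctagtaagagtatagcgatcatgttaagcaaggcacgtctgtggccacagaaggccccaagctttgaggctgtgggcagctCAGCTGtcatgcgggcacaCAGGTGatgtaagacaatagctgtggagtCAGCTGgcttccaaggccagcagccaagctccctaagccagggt
Chrnb1 promoter, minus strand of chr11:69795938-69796187: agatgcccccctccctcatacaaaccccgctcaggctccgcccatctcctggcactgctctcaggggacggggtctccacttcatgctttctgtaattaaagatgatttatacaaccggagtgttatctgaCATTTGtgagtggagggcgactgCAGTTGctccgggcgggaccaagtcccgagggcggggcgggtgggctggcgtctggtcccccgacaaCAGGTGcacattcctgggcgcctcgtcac
Chrng promoter, plus strand of chr1:87205561-87205810: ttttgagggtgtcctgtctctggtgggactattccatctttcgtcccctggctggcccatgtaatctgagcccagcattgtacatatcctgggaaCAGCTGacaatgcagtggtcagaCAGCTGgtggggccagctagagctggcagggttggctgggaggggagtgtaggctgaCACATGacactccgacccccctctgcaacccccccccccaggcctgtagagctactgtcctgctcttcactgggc
Chrne promoter, minus strand of chr11:70619195-70619444: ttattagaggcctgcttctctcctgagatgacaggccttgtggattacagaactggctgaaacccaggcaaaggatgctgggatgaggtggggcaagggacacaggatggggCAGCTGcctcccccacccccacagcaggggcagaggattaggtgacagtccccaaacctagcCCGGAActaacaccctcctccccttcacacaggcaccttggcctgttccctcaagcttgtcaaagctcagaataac
Motifs were searched on both strands from 250 bases before to 50 after each start. Chrna1 held the E-box CAGCTG 92 and 44 bases before its start and CAGGTG 73 before. Chrng held CAGCTG 155 and 132 bases before and CACATG 75 before, and Chrne held CAGCTG 138 bases before and CCGGAA 76 before. The E-box CAGCTG was thus in all 3 of these promoters without a peak, beside 15.6% of 21263 protein-coding promoters, while any E-box was in 69.0% and CCGGAA in 18.7%. Chrnb1 held neither CAGCTG nor CCGGAA. Its E-boxes were CATTTG 119 bases before the start, CAGTTG 96 bases before and CAGGTG 29 bases before. It also held GGGCGG 4 times, beside 46.2% of promoters with at least 1 match, CATTCC (the MCAT motif of Tead factors, in 13.6%) 21 bases before and TATAAA on the opposite strand 144 bases before (in 12.6%). The MEF2 site, the CArG box and the NFI palindrome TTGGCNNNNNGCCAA were in none of the 4, beside 2.74%, 1.52% and 0.0329% of promoters. CACCTG or its complement was in Chrna1 and Chrnb1, beside 19.7%. A match describes these letters only.

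The promoters also differed in CpG content, which goes with promoter peaks across the genome. Over 1 kb around a start, the ratio of observed to expected CpG was 0.636 for Chrnb1, 0.260 for Chrng, 0.227 for Chrna1, 0.177 for Chrne and 0.166 for Chrnd. When all genes were split into 3 equal classes by this ratio, Chrnb1 fell in the middle class and the other 4 subunit genes in the low class. In the low class 16.7% of 7313 genes had a promoter peak in replicate 1 and 5.39% in replicate 2, and 82.7% had one in neither library. In the middle class the shares were 85.2% and 62.0%, with 14.1% in neither. The state of each of the 5 promoters was thus that of most genes of its class.

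**Figure D2:**
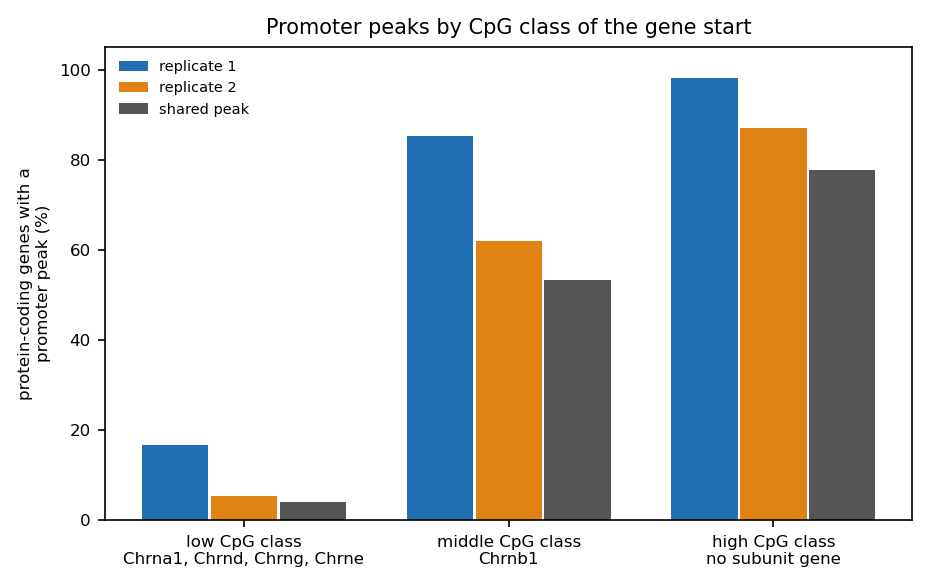
Bars give the share in percent of protein-coding genes with a promoter peak in replicate 1, in replicate 2 and shared, in 3 equal classes of observed over expected CpG around the start, with the subunit genes of each class named under it. Chrna1, Chrnd, Chrng and Chrne sit in the class where 16.7% and 5.39% of genes had a promoter peak, and Chrnb1 in the class with 85.2% and 62.0%.

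Away from promoters the loci differed in how far the libraries matched. A peak was called distal when it lay over 1 kb from every TSS of a protein-coding gene and within 50 kb of a TSS of the subunit gene. Chrna1 had 7 distal peaks in replicate 1 and 0 in replicate 2, Chrnb1 4 and 2, Chrnd 8 and 6, Chrng 8 and 7, and Chrne 3 and 0. At least 1 distal peak was found for 84.0% of all protein-coding genes in replicate 1 and for 40.1% in replicate 2. In the longer lists the counts were 12 and 2 for Chrna1, 12 and 3 for Chrnb1, 12 and 9 for Chrnd, 12 and 10 for Chrng and 5 and 1 for Chrne, beside 93.3% and 60.7% of all genes with at least 1. As many distal peaks as Chrnd or more were found for 22.0% of genes in replicate 1 and 1.85% in replicate 2, and as many as Chrng or more for 22.0% and 1.42%. For Chrna1 the share was 27.6% in replicate 1, for Chrnb1 51.6% and 17.8%, and for Chrne 61.7% in replicate 1. With replicate 1 limited to its tallest peaks, those of height 2.71 or more, its counts were 2 for Chrna1, 2 for Chrnb1, 2 for Chrnd, 3 for Chrng and 0 for Chrne, so the order of the libraries turned at Chrnd and Chrng. Counted once each over the 4 loci, there were 23 distal peaks in replicate 1 and 9 in replicate 2, of which 4 in each were shared. Of these 4, 3 were the same sites in both libraries, all at Chrnd and Chrng. The remaining one, at Chrnb1, was a different site in each library, paired with a promoter peak of Fgf11 in the other. Counted in replicate 1, Chrnb1 had 1 shared distal peak, Chrnd 2 and Chrng 3. Of all genes, 35.4% had at least 1, 13.0% at least as many as Chrnd and 4.40% at least as many as Chrng.

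**Figure D3:**
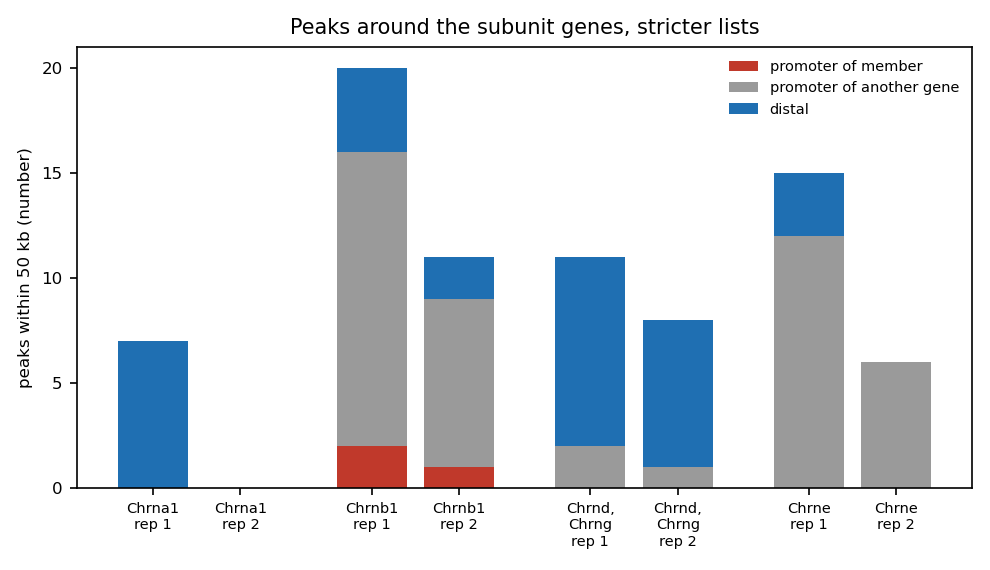
Stacked bars count the peaks of the stricter list within 50 kb of each of the 4 loci in each library, split into promoter peaks of a subunit gene, promoter peaks of another gene and distal peaks. Chrna1 has 7 peaks in replicate 1 and none in replicate 2, and at Chrnb1 and Chrne most peaks belong to promoters of other genes.

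Chrna1 (chr2:73563215-73580338, minus strand, 9 exons, 1 TSS), the alpha subunit gene, had its 2 tallest peaks at sites of replicate 1 alone in these lists. The taller lay in intron 4, 7688 bp downstream of the start, with a height of 4.23, 5 footprints and a lowest FDR of 2.44e-42. Replicate 2 had no FDR interval at that site. The other lay 4432 bp upstream, with a height of 2.89, 4 footprints and a lowest FDR of 1.19e-24. It overlapped the start of Chrna1os, a gene on the opposite strand that runs away from Chrna1 and does not overlap it. Replicate 2 had an interval there with an FDR of 0.00187 and, in its longer list, a peak of height 1.13 that counted as shared. The other 5 distal peaks of Chrna1 in replicate 1 had heights from 0.453 to 0.931, below the median of that list. Both tall sites are shown in GRCm38.p6 on the minus strand, as the tallest peaks of this gene, with capitals for bases inside footprints of replicate 1.
Chrna1 peak in intron 4, chr2:73572561-73572740: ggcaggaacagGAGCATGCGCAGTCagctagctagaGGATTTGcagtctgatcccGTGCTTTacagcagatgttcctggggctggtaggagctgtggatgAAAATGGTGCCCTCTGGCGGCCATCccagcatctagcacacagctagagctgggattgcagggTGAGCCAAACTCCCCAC
Chrna1 upstream peak, chr2:73584681-73584860: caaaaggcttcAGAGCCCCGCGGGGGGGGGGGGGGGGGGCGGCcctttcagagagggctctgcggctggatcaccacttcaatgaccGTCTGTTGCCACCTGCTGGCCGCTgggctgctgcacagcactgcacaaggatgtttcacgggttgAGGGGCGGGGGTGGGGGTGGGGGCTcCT
The upstream peak held the E-box CACCTG and the Sp1 box GGGCGG on both sides of it, all inside footprints of replicate 1. Replicate 2 had 4 footprints within 300 bp of its middle, of which 3 lay wholly inside footprints of replicate 1 and the remaining one touched one, although the stricter list of replicate 2 had no peak there. They fell on 2 of the 4 footprints of replicate 1, including the footprint with a long run of G in the printed letters. Whether such a run is cut less in any library was not tested. The other 2 footprints of replicate 1, 1 of which holds a GGGCGG, had no footprint of replicate 2. The peak in intron 4 held CAGATG, outside the footprints.

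**Figure D4:**
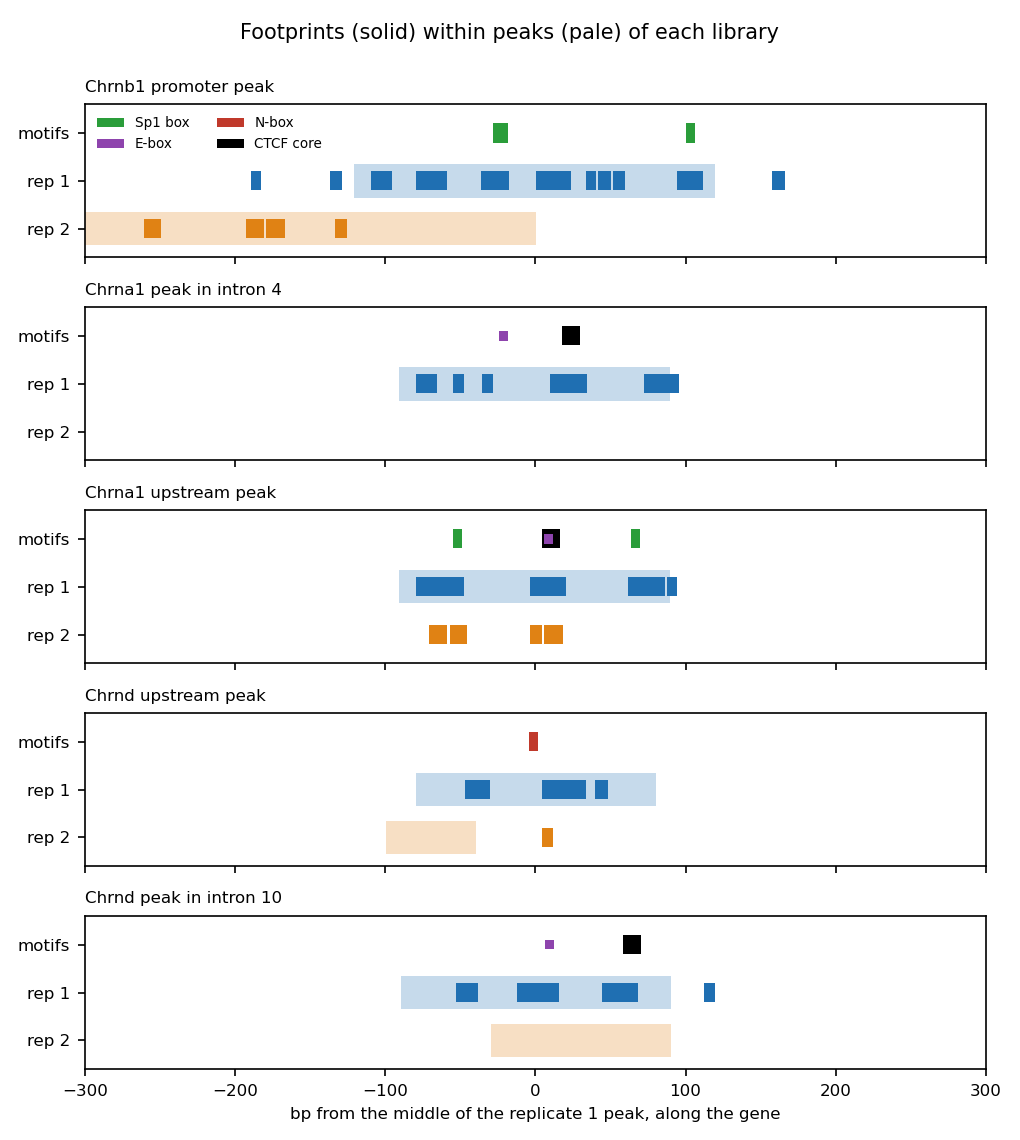
Pale bars are peaks and solid bars footprints of replicate 1 (blue) and replicate 2 (orange), on the distance in bp from the middle of the replicate 1 peak along the gene, with motif matches above. In the Chrna1 upstream peak 4 footprints of replicate 2 touch 2 of the 4 of replicate 1, while the Chrna1 peak in intron 4 has none in replicate 2.

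Chrnd (chr1:87190607-87200070, plus strand) and Chrng (chr1:87204657-87212694, plus strand), the delta and fetal gamma subunit genes with 12 exons each, are neighbours in the same orientation and were treated as 1 locus. The locus had 11 peaks within 50 kb in replicate 1, of which 9 were distal, and 8 in replicate 2, of which 7 were distal. The rest were promoter peaks of the neighbour Eif4e2, a translation initiation factor gene, with tallest heights of 9.89 and 1.43. No peak of either library lay over the body of Chrng, whereas 1 peak of replicate 1 and 4 of replicate 2 lay over that of Chrnd. Replicate 1 and replicate 2 shared 3 distal sites, all given here.

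The shared site nearest to the start of Chrnd lay 3437 bp upstream in replicate 1, over exon 11 of Prss56, a serine protease gene, with heights of 2.97 and 1.27. The peak of replicate 2 was 60 bp wide, and 66.7% of it overlapped the peak of replicate 1. In the longer lists the peak of replicate 2 was 160 bp wide and the pair no longer counted as shared. The next had its middle in intron 10 of Chrnd, 6873 bp downstream of its start. Its heights were 2.36 in replicate 1 and 0.257 in replicate 2, with lowest FDR values of 6.94e-13 and 7.64e-07. Peaks are named by the exon or intron at their middle, and how much of each lay in exons was not measured. The third lay 40569 bp downstream of the start of Chrng, beyond Eif4e2, with heights of 5.68 and 2.05, the tallest distal peak of the locus in both libraries. It was over 50 kb from Chrnd and so counted for Chrng alone. The first pair is shown on the plus strand of GRCm38.p6, as the shared sites next to and inside Chrnd, with capitals for bases inside footprints of replicate 1.
Chrnd upstream peak, chr1:87187121-87187280: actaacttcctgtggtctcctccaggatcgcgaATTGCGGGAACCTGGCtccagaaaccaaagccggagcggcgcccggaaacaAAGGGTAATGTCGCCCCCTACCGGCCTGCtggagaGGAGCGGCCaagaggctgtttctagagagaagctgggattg
Chrnd peak in intron 10, chr1:87197421-87197600: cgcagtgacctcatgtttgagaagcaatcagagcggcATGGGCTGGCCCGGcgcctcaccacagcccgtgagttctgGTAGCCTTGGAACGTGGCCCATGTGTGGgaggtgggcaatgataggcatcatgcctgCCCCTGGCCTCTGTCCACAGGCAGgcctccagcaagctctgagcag
The upstream peak held the N-box CCGGAA once, outside the footprints, and the peak in intron 10 held the E-box CATGTG inside one. CCGGAA was found in the central 150 bp of 5.08% of all peaks of replicate 1 and 9.91% of those of replicate 2. Both shares include promoter peaks.

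Further upstream, replicate 1 had peaks of height 1.97 at 16147 bp before the start of Chrnd, 1.47 at 14667 bp and 1.32 at 5597 bp. Replicate 2 had a peak of height 1.06 at 16024 bp before the start that overlapped the first by 13 bp, too little to count as shared. It had longer-list peaks at the other pair that did count, of heights 0.836 and 0.933. This upstream row was thus cut in both libraries, at heights below those of the shared sites in replicate 1. An intronic peak of Eif4e2, 21529 bp downstream of the start of Chrng, reached 5.59 in replicate 1 with a lowest FDR of 8.05e-55, and replicate 2 had no interval there.

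Replicate 2 had a row of low peaks over the last exons of Chrnd, all but the one in intron 10 in replicate 2 alone. They lay in intron 9 (height 0.204), over the shared site in intron 10 (0.257), in intron 11 (0.343) and over exon 12 (0.364). All 4 heights were below 0.504, the 5th percentile of that list, and amount to 19, 24, 32 and 34 steps of the smallest unit in which heights of this library come. Their lowest FDR values were nevertheless 1.23e-05, 7.64e-07, 4.73e-10 and 2.62e-12. All but the first were lower than the 8.48e-07 of the Chrnb1 promoter peak, which was 1.82 high. Replicate 1 had no FDR interval at the peaks in intron 9, intron 11 and exon 12. These 4 peaks make up most of the 6 distal peaks of Chrnd and the 7 of Chrng in replicate 2, so the high ranks of both genes there rest on them. Why such low peaks carried such low FDR values was not tested.

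**Figure D5:**
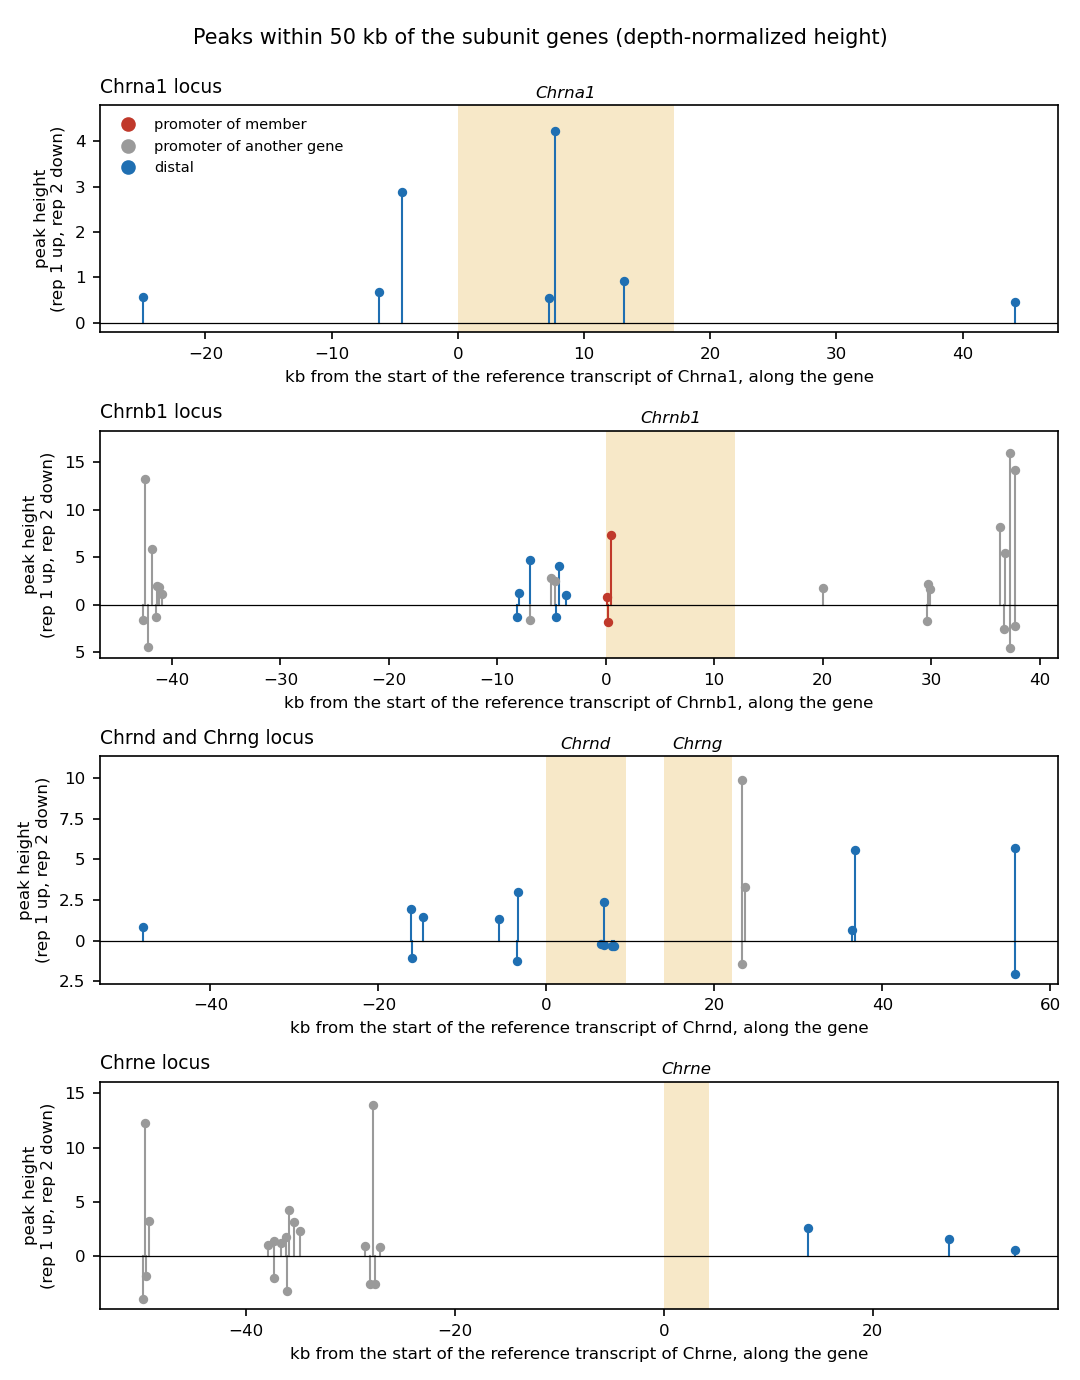
Each stem is a peak of the stricter list, at its distance in kb from the start of the reference transcript along the gene, with depth-normalized height upward for replicate 1 and downward for replicate 2, and gene bodies shaded. Chrna1 has stems of replicate 1 only, and the low stems of replicate 2 over the end of Chrnd are between 0.204 and 0.364 high.

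Chrnb1 lies among open promoters of other genes, Polr2a and Zbtb4 downstream and Fgf11, Nlgn2 and Tmem256 upstream. Of 20 peaks within 50 kb in replicate 1, 14 were promoter peaks of those genes, and of 11 in replicate 2, 8 were. Its tallest distal peak in replicate 1, of height 4.71, lay 7027 bp upstream and overlapped a peak of height 1.65 in replicate 2. That pair straddled the 1 kb limit, since the peak of replicate 1 was 1024 bp from the nearest TSS of Fgf11, a fibroblast growth factor family gene, and the wider one of replicate 2 was 924 bp from it and counted as a promoter peak of Fgf11. The reverse held for a site in intron 1 of Fgf11 with heights of 2.48 and 1.30, at 996 and 1104 bp from that TSS. A peak of height 4.03 in the same intron, 4357 bp upstream of Chrnb1, was in replicate 1, and replicate 2 had an FDR of 0.0101 there and a longer-list peak of height 1.30 that counted as shared.

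Chrne (chr11:70614883-70619216, minus strand, 12 exons), the adult epsilon subunit gene, had no peak over its body in the stricter list of either library. Its 3 distal peaks in replicate 1, at 13846, 27345 and 33602 bp downstream of its start, had heights of 2.58, 1.58 and 0.638, and all lay in introns of Mink1, a kinase gene. At the first of these replicate 2 had an FDR of 0.00413 and a longer-list peak of height 1.25, and at the other pair no interval. The longer lists added a peak over the end of Chrne in each library, of height 0.638 in replicate 1 and 1.20 in replicate 2. These lay near starts of retained-intron transcripts inside the gene, 3272 and 3947 bp downstream of its protein-coding start, did not overlap each other, and also lay within 1 kb of a start of the neighbour 4930544D05Rik. The promoters within 50 kb upstream were open in both libraries, with tallest heights of 14.0 and 2.52 at Slc25a11 and Rnf167 and of 12.2 and 3.95 at Spag7.

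Side by side, the fetal gamma gene Chrng and the adult epsilon gene Chrne both had no promoter peak, no FDR interval at a protein-coding start and an E-box CAGCTG before the start. In the stricter lists they differed in distal peaks. Chrng had 8 and 7 in the libraries and 3 shared sites, and Chrne had 3 and 0 with none shared. As many as Chrng or more were found for 22.0% and 1.42% of all genes. For Chrne the share was 61.7% in replicate 1. In replicate 2, 4 of the 7 at Chrng were the low peaks over the end of Chrnd, 0.204 to 0.364 high. The shared site in intron 10 was among them. In the longer lists, counted in replicate 1, Chrne had 1 shared distal peak and the locus of Chrnd and Chrng 4. Of the distal peaks of Chrng, 7 of 8 in replicate 1 and 6 of 7 in replicate 2 also lay within 50 kb of Chrnd, so they cannot be told apart from peaks of the delta subunit gene. With 1 age measured, the peaks say nothing on the order in which the subunits are used.

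The sequences of the tall sites at Chrna1 led to a further search, chosen after they were seen, for CCNCNNGNNGGC, a loose core of the motif of CTCF, a factor of chromatin loops and insulation. In the Chrna1 peak in intron 4 the match lay wholly inside a footprint, as did that of the upstream peak, where it overlapped the E-box CACCTG. The match in the Chrnd peak in intron 10 lay partly outside a footprint. Of the printed promoters, that of Chrng held a match, 206 bases before its start, beside 12.1% of promoters. Of the 23 distal peaks of replicate 1 at the subunit genes, 11 held a match in their central 150 bp, beside 10.5% of all 84881 distal peaks of that library. In replicate 2 it was 3 of 9, beside 21.2% of 9489. The 11 lay at all 4 loci, with 3 at Chrna1, 2 at Chrnb1, 5 at Chrnd and Chrng and 1 at Chrne. As the motif was picked on some of these peaks, the counts are a description, and CTCF binding was not measured. For the E-box CANNTG, 17 of the 25 distal or promoter peaks of replicate 1 held a match, beside 64.4% of all peaks, and 3 of 10 of replicate 2, beside 44.1%.

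The genes that build the synapse around the receptor gave counts near the background. Of 24 such genes, 18 had a promoter peak in replicate 1 and 15 in replicate 2, beside 66.6% and 51.4% of all genes. In both libraries 12 had one, beside 11183 of all 21951 genes. The tallest in replicate 2 among those in both were Gabpb1 (heights of 4.96 and 3.81) and Gabpa (6.34 and 3.00), which encode the subunits of GABP, then Utrn (4.38 and 2.35), which links the cytoskeleton to the synaptic membrane, and Ache (7.84 and 2.21), acetylcholinesterase. The 3 list genes without one in either library were Musk, the receptor kinase that organizes the synapse, Myog, a MyoD family factor, and Scn4a, the muscle sodium channel. By the summed difference in log2 promoter height over both libraries, Chrnb1 was most like Ache (0.36) and Agrn (0.60, with heights of 6.06 and 1.47), the nerve-derived organizer agrin, of 13 genes with a promoter peak in both libraries, the 12 of this list and Chrna7 of the neuronal list described next.

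Related genes encode the nicotinic subunits of neurons. Of these 11 genes, 5 had a promoter peak in replicate 1 and 1 in replicate 2, beside 66.6% and 51.4% of all genes. The 1 in replicate 2 was Chrna7, with heights of 5.56 and 0.815. The 6 without one in either library, beside 7220 of all 21951 genes, were Chrna2, Chrna6, Chrna9, Chrna10, Chrnb3 and Chrnb4. The median number of distal peaks a gene was 5 in replicate 1 and 1 in replicate 2 for the neuronal subunits, 7 and 2 for the muscle subunits, and 4 and 0 for all protein-coding genes. With Chrnd and Chrng counted as 1 locus, the medians of the 4 muscle loci were 5.5 and 1.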

How the data were processed

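DNase-seq was analysed in 2 libraries of 1 group. For each, the authors deposited 2 peak lists, FDR intervals and footprints on mm10, per the labels and the file headers. Peak height is a signal, normalized to read depth by the authors; FDR is a p-value corrected by the authors, deposited where it was at most 0.05; the deposited score of every footprint is 0.01. Which aligner and callers were used is not given in the sources used here. Libraries were called separately. Heights came in steps of 0.00597 in replicate 1 and 0.0107 in replicate 2 (100% of low heights whole within 0.05), which would be 168 M and 93.3 M reads if heights are per 1 M reads, an inference from the values. Height floors therefore differ, and read totals are unknown.

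The stricter list was the main one and the longer list an alternative. TSS came from GENCODE M21. Promoter peaks lay within 1 kb of any TSS of the gene; distal peaks lay over 1 kb from every protein-coding gene's TSS and within 50 kb; shared peaks overlapped at least 50% of either. Sequences came from RefSeq's GRCm38.p6, whose chromosomes hold all peaks, and are the reference's, not these hybrid animals'; promoters of 4 of the 5 genes were found. Named with values were all members, up to 4 genes of each of 2 lists (tallest in replicate 2 among those with promoter peaks in both libraries, then those without), the 2 most like Chrnb1 in promoter height, and genes beside named peaks; other list genes and marker genes are named without values unless said. The members and lists were chosen with earlier results of these data known. Python 3.11.15, numpy 2.4.6 and matplotlib 3.10.9 were used, with overlaps tested on simulated data against bedtools 2.31.1. Alternatives were the longer lists, other windows and overlaps, protein-coding TSS, merged peaks, the tallest peaks of replicate 1 and each library alone.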

Additional observations from a re-analysis of the deposited data

How the results depend on the processing

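With the longer lists the number of subunit genes with a promoter peak was 2 in each library instead of 1, Chrne being added through starts of retained-intron transcripts, and it was 1 again with protein-coding TSS, a setting chosen after seeing the data. Asking for 50% of both peaks left 0 shared promoter peaks instead of 1, as the Chrnb1 peak of replicate 2 covers 50.4% of that of replicate 1 and overlaps it with 26.5% of its own length. Distal peaks of replicate 1 were 23, and 43 with the longer list, 41 within 100 kb and 7 among its tallest peaks. Those of replicate 2 were 9, and 16 with the longer list. Shared distal peaks, counted in replicate 1, were 4, and 9 with the longer lists, where the site upstream of Chrnd was no longer among them. Each library alone had 9 to 23 distal peaks, with nothing to share. Of 42 alternatives, the other 32 stayed within 1.5 times of the main count. Depth, which is unknown, and the difference in list length limit what the absence of a peak in replicate 2 shows. No paired analysis was possible because there is 1 group and no contrast.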
